A study of Mus musculus with 24 samples.

Results

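The 78 mitochondrial ribosomal protein genes, taken as every protein-coding symbol that starts with Mrpl or Mrps followed by a digit, were read from the 55469 rows measured in the brain and the liver of mice that lack single phenylalanine tRNA genes. Total RNA of both organs was sequenced, from male C57BL/6N mice aged 10 weeks. The 4 genotypes were wild type (WT), the tRNA-Phe-1-1-/- line, the tRNA-Phe-2-1-/- line and the tRNA-Phe-3-1-/- line, each line being homozygous for deletion of the tRNA gene in its name, with 3 samples (replicates A, B and C) for each genotype in each tissue. The lines were made with CRISPR-Cas9. tRNA-Phe-1-1 belongs to an isodecoder group of several genes, the rest of which remained, while the other removed genes are each alone in their group. WT mice without any deletion served all 3 comparisons in a tissue. The paper calls WT mice littermate-matched but also states that mice came from different litters, and the labels give no litter. The labels do not tie a brain sample to a liver sample of the same mouse, so p-values measure the spread between these samples. The tRNA genes that were removed were not analysed here.

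Mitochondria have ribosomes of their own, which make the few respiratory chain proteins encoded by mitochondrial DNA. Their proteins are encoded in the nucleus, made on cytosolic ribosomes with nuclear tRNAs such as tRNA-Phe, and then imported, while the mitoribosome itself decodes with mitochondrial tRNAs. Its large subunit joins amino acids and carries the exit tunnel, the stalk that binds translation factors and the central protuberance. Its small subunit holds the messenger RNA and the decoding centre. Many of these proteins have a bacterial counterpart, and the others were added during the evolution of mitochondria.

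Of the 78 genes, 51 encode proteins of the large subunit (30 with a bacterial counterpart and 21 without) and 26 encode proteins of the small subunit (16 with and 10 without). Mrps30 and Mrps18a were counted with the large subunit, in which their proteins are found in spite of their names. Mrps36, the protein of which is now known as a subunit of the alpha-ketoglutarate dehydrogenase complex, was kept as a member but put in neither subunit. All 78 genes had a mean normalised count of at least 10, the minimum for testing, in both tissues, so none was lost to the filter.

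Promoters of this family are known for sites of the nuclear respiratory factors NRF-1 and GABP, the latter of the ETS family. The RefSeq windows (GRCm38.p6) of 69 of the 78 genes gave 75 stretches of 250 bases before a transcription start. Of these genes, 3 had more than 1 window, and where such windows overlap the same letters were counted again. On either strand, the NRF-1 letters (GCGCA, any base, then GCGC) stood in 10 of the 75 (13.3%), against 3.74% of all 32851 windows and 6.41% of the 16705 windows of genes tested in either tissue. CCGGAAG (ETS) stood in 18 of the 75 (24%), against 6.91% of all windows and 11% of those of tested genes. GGGCGG (SP/KLF), which can overlap itself, was found in 37 members' windows (49.3%), against 32.7% of all windows and 52.1% of those of tested genes. AAGATGGCG (YY1) was found in 2.67% of the members' windows, against 0.606% of all windows and 0.952% of those of tested genes. CACGTG (E-box) was found in 9.33%, against 6.02% and 7.67%. The members' share counts the same E-box of Mrpl2 in each of its overlapping windows, so it does not show an excess by gene. The TATA box letters TATAAA stood in 6.67% of the members' windows, against 12.4% of all windows and 7.54% of those of tested genes. The median GC content was 58.4% in members' windows and 58.8% in windows of tested genes. The median number of CG dinucleotides was 17 in members' windows and 13 in windows of tested genes. Both the NRF-1 and the ETS letters contain CG, and the part of this difference in their shares was not tested. A match describes letters and not a bound site.

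The windows of 4 members that recur in the results are shown 5′ to 3′ up to the last base before the start, with the letters of any of these motifs in capitals. Mrps9 was lower in tRNA-Phe-1-1-/- livers, Mrpl43 and Mrps18a were higher there, and Mrps21 had the highest level per length in both tissues.
Mrps9, chr1:42850983-42851232, plus strand: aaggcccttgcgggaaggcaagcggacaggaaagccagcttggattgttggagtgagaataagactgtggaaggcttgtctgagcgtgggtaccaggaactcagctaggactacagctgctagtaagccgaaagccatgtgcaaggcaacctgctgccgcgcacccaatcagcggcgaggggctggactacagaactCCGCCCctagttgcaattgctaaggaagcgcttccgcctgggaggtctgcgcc
Mrpl43, chr19:45006443-45006692, minus strand: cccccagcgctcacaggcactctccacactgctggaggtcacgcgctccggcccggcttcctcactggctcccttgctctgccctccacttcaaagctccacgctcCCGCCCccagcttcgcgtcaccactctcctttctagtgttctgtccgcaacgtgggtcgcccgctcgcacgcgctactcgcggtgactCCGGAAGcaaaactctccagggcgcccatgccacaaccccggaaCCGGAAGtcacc
Mrps18a, chr17:46110754-46111003, plus strand: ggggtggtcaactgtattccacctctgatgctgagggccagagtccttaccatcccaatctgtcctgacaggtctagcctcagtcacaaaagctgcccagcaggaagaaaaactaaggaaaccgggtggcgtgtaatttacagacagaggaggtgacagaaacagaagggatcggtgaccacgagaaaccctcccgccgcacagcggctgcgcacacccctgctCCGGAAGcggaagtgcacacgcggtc
Mrps21, chr3:95871515-95871764, minus strand: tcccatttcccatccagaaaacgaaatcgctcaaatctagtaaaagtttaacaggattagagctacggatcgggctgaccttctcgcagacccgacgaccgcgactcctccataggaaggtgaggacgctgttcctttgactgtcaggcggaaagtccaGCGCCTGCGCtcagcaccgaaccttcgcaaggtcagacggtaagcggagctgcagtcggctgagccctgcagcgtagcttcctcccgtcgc
The capitals are an SP/KLF match in Mrps9, an SP/KLF match and 2 ETS matches in Mrpl43, 1 ETS match in Mrps18a and 1 NRF-1 match in Mrps21. The nearer ETS match of Mrpl43 began 12 bases before its start and that of Mrps18a began 26 bases before. Each window ends just before the first base of the annotated gene, which spans chr1:42851233-42905683 for Mrps9, chr19:45005014-45006442 for Mrpl43, chr17:46111004-46128908 for Mrps18a and chr3:95862634-95871514 for Mrps21.

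Depth was 30365760 to 46225360 reads in the brain samples and 32276896 to 51584522 in the liver samples, recovered from the steps between normalised counts. Reads of the 78 genes made up 0.157% to 0.181% of each brain library and 0.149% to 0.165% of each liver library. All 9 neuronal markers had a mean normalised count of at least 10 in every brain group, and all 8 hepatocyte markers in every liver group. This shows detection only, as the markers were not compared between the tissues. In bulk samples, fewer cells of a type and less RNA per cell cannot be told apart.

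The members were expressed at moderate levels that varied widely between genes. Their mean normalised count over 12 samples ran from 217 (Mrps28) to 2134 (Mrpl3) in the brain and from 165 (Mrps6) to 1933 (Mrps7) in the liver. Per kb of the canonical transcript, Mrps21, which encodes a small subunit protein, was the highest member in both tissues, with 1549 normalised counts per kb in the brain and 1672 in the liver. The lowest per kb were Mrps28 in the brain (74.8) and Mrps25 in the liver (67.8), both of the small subunit, and the value of Mrps25 was read against a canonical transcript of 6102 bases. The highest member exceeded the lowest 20.7 times per kb in the brain and 24.7 times in the liver. The order was shared between the tissues in part: over the 78 genes the levels per kb had a Pearson r of 0.828 and a Spearman rho of 0.794, a correlation across genes that share transcript lengths and are not independent replicates. The 2 tables were normalised separately, so a level in one cannot be set against a level in the other. The scatter plot of levels per kb shows the members of the 2 subunits interspersed.

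**Figure D1:**
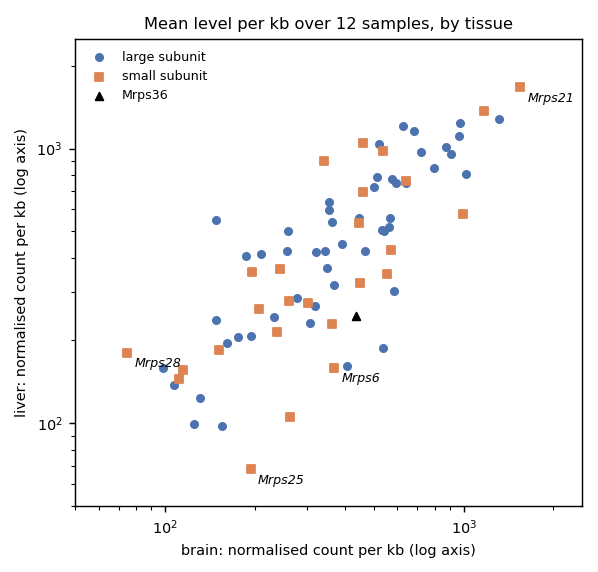
Mean normalised count per kb of canonical transcript in the brain (x axis) and liver (y axis), both on log axes, for each of the 78 genes over 12 samples per tissue, with circles for the large subunit, squares for the small subunit and a triangle for Mrps36. Mrps21 lies at the upper right (1549 and 1672), and Mrps28 (74.8 in the brain) and Mrps25 (67.8 in the liver) lie at the low ends.

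The spread between replicates was measured for these genes and for genes of like level. The median coefficient of variation over 3 replicates was 5.4% to 8.13% across the 4 brain groups, while for the 8105 brain genes in the same range of levels it was 8.15% to 10.7%. In the liver it was 5.45% to 7.35% for the members and 8.21% to 11.6% for 7368 genes of like level. The median standard error of a member's log2 fold change was 0.10 in both tissues.

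In the brain, no member passed the test in any comparison. The 78 genes kept within narrow limits of WT in all 3 lines, with median log2 fold changes of 0.02 in tRNA-Phe-1-1-/-, -0.02 in tRNA-Phe-2-1-/- and -0.01 in tRNA-Phe-3-1-/- and extremes of -0.30 and 0.35. The 95% confidence interval lay within 0.5 on either side of 0 for 76, 76 and 75 of the 78 genes in the 3 comparisons. With limma's moderated test and Benjamini-Hochberg adjustment over 19228 genes, 0 members were called among the 4 genotypes (5 at an unadjusted p under 0.05), where 0.634% of all genes were called. For tRNA-Phe-1-1-/- against WT, 0 members were called (4 unadjusted) with 1.05% of all genes called, and the replicates did not overlap for 18 members, or 23.1%, beside 25.2% of all genes. Against WT, tRNA-Phe-2-1-/- brains and tRNA-Phe-3-1-/- brains had 0 members called (2 unadjusted in each) and 0% of all genes, and 6 and 7 members had replicates that did not overlap, beside 11.4% and 16.4% of all genes. EdgeR on the recovered reads called 0 members in tRNA-Phe-1-1-/- (0.973% of all genes), in tRNA-Phe-2-1-/- and in tRNA-Phe-3-1-/- (0% of all genes in each). DESeq2 called 0 as well, beside 4.55%, 0.0988% and 1.93% of all genes.

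The brain members with the lowest p are given by their values. Mrps18b, a small subunit gene without a bacterial counterpart, had normalised counts of 486, 509 and 431 in WT and 372, 374 and 408 in tRNA-Phe-1-1-/-. The 3 knockout samples lay below the 3 WT samples, at a log2 fold change of -0.30 ± 0.10 (SE) and an adjusted p of 0.169. Mrps6, a small subunit gene with a bacterial counterpart, had 313, 360 and 396 in WT and 434, 468 and 453 in tRNA-Phe-1-1-/-. These did not overlap either, at 0.35 ± 0.13 and an adjusted p of 0.21. Salmon had to divide reads between Mrps6 and Slc5a3, the exons of which overlap it on the same strand, so its level is uncertain.

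Mrps5, whose protein lies where the messenger RNA enters the small subunit, had 1245, 1226 and 1280 normalised counts in WT brains, 1518, 1357 and 1390 in tRNA-Phe-2-1-/- and 1516, 1304 and 1415 in tRNA-Phe-3-1-/-. All samples of both lines lay above those of WT, at log2 fold changes of 0.18 ± 0.08 (adjusted p = 0.894) and 0.17 ± 0.08 (adjusted p = 0.398). Mrpl52, of the large subunit, had 346, 361 and 350 in WT and 253, 320 and 293 in tRNA-Phe-2-1-/-, a log2 fold change of -0.29 ± 0.12 with an adjusted p of 0.894. In tRNA-Phe-3-1-/-, the member with the lowest p was Mrpl48, of the central protuberance, with 1973, 1694 and 1989 in WT and 1596, 1586 and 1689 in the knockout, at -0.21 ± 0.08 and an adjusted p of 0.344. Its WT and knockout samples did not overlap, and a named pseudogene row may share its reads. Among the 4 genotypes the lowest p belonged to Mrpl52 (adjusted p = 0.223), Mrpl4 (0.229), of the large subunit, and Mrps12 (0.256), of the decoding centre, none past the threshold.

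Between the knockout lines in the brain, 0 members differed by the test when tRNA-Phe-1-1-/- was set against tRNA-Phe-2-1-/- (8 at an unadjusted p under 0.05), beside 0.530% of all genes. With tRNA-Phe-1-1-/- set against tRNA-Phe-3-1-/-, 0 members were called (11 unadjusted), beside 2.11% of all genes. DESeq2 called 1 member there, Mrpl4, higher in tRNA-Phe-1-1-/-, beside 6.77% of all genes. Leaving out tRNA-Phe-3-1-/- replicate B, the brain sample with the lowest summed count of the members, gave 1 call of another gene, Mrpl23, lower in tRNA-Phe-1-1-/-. That run called 411 of all genes, against 406 in the main fit. Both genes were named after their values were seen. With tRNA-Phe-2-1-/- set against tRNA-Phe-3-1-/-, 0 members were called (1 unadjusted) and 0% of all genes. EdgeR called 0 members in these 3 comparisons, beside 0.562%, 1.83% and 0% of all genes, and DESeq2 called 0 in both that involve tRNA-Phe-2-1-/-, beside 3.50% and 0.863%. Oligodendrocyte markers were lower in tRNA-Phe-1-1-/- brains, where all 7 had negative log2 fold changes (-2.19 to -0.89, 1 called, beside 1.05% of all genes). They summed to 44105 to 83854 normalised counts there, beside 116318 to 138759 in WT. The sums varied widely in the other lines, at 64351 to 153947 in tRNA-Phe-2-1-/- and 79901 to 170404 in tRNA-Phe-3-1-/- brains. Both ranges overlapped WT and reached below every WT brain. Summed endothelial markers were 5046 to 5461 in tRNA-Phe-1-1-/- brains and 5332 to 5459 in tRNA-Phe-3-1-/- brains, all below the 5542 to 6006 of WT, and summed astrocyte markers were 87354 to 105577 in tRNA-Phe-3-1-/- brains, below the 107191 to 138308 of WT. The part of these shifts in the members' values was not tested.

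The summed normalised count of the 78 genes gives the level of the set in each sample. In the brain it was 60359, 58357 and 58592 in WT, 58206, 60548 and 61540 in tRNA-Phe-1-1-/-, 59757, 56223 and 59657 in tRNA-Phe-2-1-/- and 61303, 54634 and 60095 in tRNA-Phe-3-1-/-. The 4 brain groups overlapped. In the liver the sum was 64092, 63243 and 62509 in WT, 64053, 61351 and 65230 in tRNA-Phe-1-1-/-, 67345, 70515 and 68392 in tRNA-Phe-2-1-/- and 65281, 67528 and 67878 in tRNA-Phe-3-1-/-. All livers of the tRNA-Phe-2-1-/- line and of the tRNA-Phe-3-1-/- line lay above all WT livers, whereas tRNA-Phe-1-1-/- livers overlapped WT. The group means were 63281 ± 792 (SD, n = 3) in WT, 63545 ± 1989 in tRNA-Phe-1-1-/-, 68751 ± 1615 in tRNA-Phe-2-1-/- and 66896 ± 1409 in tRNA-Phe-3-1-/-. These sums are a description without a test, and the plot of summed counts shows them by sample.

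**Figure D2:**
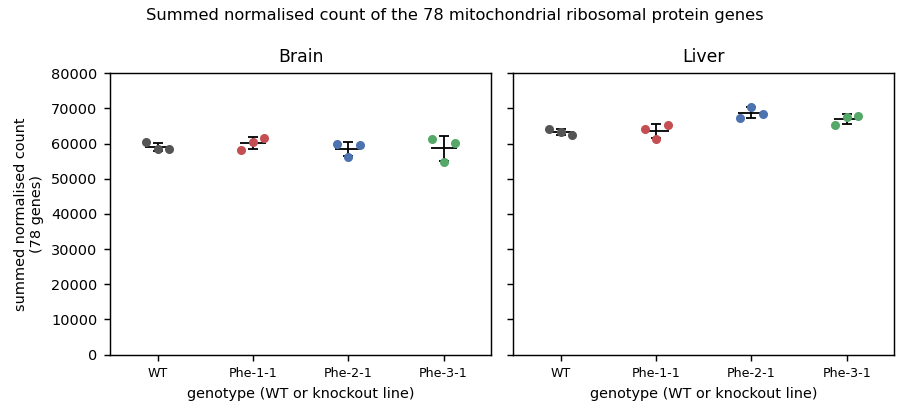
Summed normalised count of the 78 genes for each sample (points) by genotype, with the mean and SD of 3 replicates (bar and whiskers), in brain and liver. The brain groups overlap around 54634 to 61540, and livers of the tRNA-Phe-2-1-/- line and the tRNA-Phe-3-1-/- line (65281 to 70515) lie above the WT livers (62509 to 64092).

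In the liver the test across the 4 genotypes called 11 of the 78 genes, or 14.1%, beside 17.0% of all 15856 genes tested, and 31 members had an unadjusted p under 0.05. The lowest p belonged to Mrpl14 (adjusted p = 0.00258), Mrpl18 (0.0169) and Mrpl43 (0.0177), all of the large subunit. Of the 11 genes, 6 were of the large and 5 of the small subunit. The count fell to between 5 and 7 when a library was left out, for WT replicate B (6), tRNA-Phe-1-1-/- replicates A (5) and B (5), tRNA-Phe-2-1-/- replicates A (7), B (7) and C (6) and tRNA-Phe-3-1-/- replicates A (7), B (6) and C (7). Over the 6 pairwise comparisons, 21 members (26.9%) were called at least once, beside 27.0% of all genes.

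In tRNA-Phe-1-1-/- livers, 3 members rose and 4 fell against WT, while the median of the 78 log2 fold changes was -0.00 and 38 were positive. The 7 calls were 8.97% of the members, beside 17.3% of all genes (8.27% higher and 9.08% lower). Replicates did not overlap for 22 members, 12 of them higher and 10 lower, beside 34.8% of all genes (17.2% higher and 17.6% lower). EdgeR called 7 members, beside 17.0% of all genes, and DESeq2 called 9, beside 21.9%.

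Mrpl14, a large subunit protein with a bacterial counterpart that faces the small subunit, fell most. It had 1059, 1033 and 924 normalised counts in WT and 699, 583 and 740 in tRNA-Phe-1-1-/- livers. The groups did not overlap, and the log2 fold change was -0.58 ± 0.10 (SE), 0.669 of the WT level, with an adjusted p of 0.00231. The other lines did not pass, with 993, 1009 and 960 in tRNA-Phe-2-1-/- (-0.02 ± 0.10, adjusted p = 0.934) and 1059, 1096 and 1084 in tRNA-Phe-3-1-/-, just above WT (0.11 ± 0.10, adjusted p = 0.639). The fall kept an adjusted p below 0.05 in 17 of 17 alternatives, from 9.25e-07 to 0.0258.

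Mrps35, a small subunit protein without a bacterial counterpart, fell from 887, 994 and 783 in WT to 564, 545 and 732 in tRNA-Phe-1-1-/-, a log2 fold change of -0.54 ± 0.13 with an adjusted p of 0.0151. The highest knockout sample lay below the lowest WT sample. Mrps9, a small subunit protein with a bacterial counterpart, fell from 668, 704 and 637 to 517, 547 and 556, or -0.31 ± 0.09 with an adjusted p of 0.0367. Again no samples overlapped. Mrpl23, which lies at the exit of the tunnel, fell from 695, 651 and 774 to 527, 482 and 611, or -0.39 ± 0.12 with an adjusted p of 0.0445. Its reads may be shared with a named pseudogene row.

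Mrpl43, a large subunit protein without a bacterial counterpart, rose from 667, 611 and 664 in WT to 780, 782 and 852 in tRNA-Phe-1-1-/-, a log2 fold change of 0.31 ± 0.08 with an adjusted p of 0.0264. Mrps18a, also of the large subunit, rose from 726, 558 and 571 to 849, 783 and 790, or 0.39 ± 0.11 with an adjusted p of 0.0284. Mrps34, of the small subunit, rose from 608, 667 and 590 to 717, 862 and 755, or 0.32 ± 0.10 with an adjusted p of 0.0485. In none of these 3 genes did tRNA-Phe-1-1-/- and WT samples overlap. Exons of Nme3 overlap Mrps34 on the same strand, which leaves the division of its reads uncertain.

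Apart from Mrpl14, the calls in tRNA-Phe-1-1-/- livers depended on single libraries. The count of 7 was 6, 1 and 2 without WT replicates A, B and C. It was 1, 4 and 5 without tRNA-Phe-1-1-/- replicates A, B and C. Calls over all genes, 2751 in the main fit, also fell, to 2331, 1789 and 1472 without these WT replicates. They were 1610, 2286 and 2559 without these tRNA-Phe-1-1-/- replicates. Mrps35 kept its call in 14 of 17 alternatives (adjusted p 0.00173 to 0.0619) and lost it without WT replicate B or tRNA-Phe-1-1-/- replicate A. Mrps18a kept it in 13 (0.00642 to 0.109) and lost it without WT replicate B or C or tRNA-Phe-1-1-/- replicate A. Mrpl43 kept it in 11 (0.00583 to 0.0917) and lost it without WT replicate B or C or tRNA-Phe-1-1-/- replicate A or C. Mrps9 kept it in 9 (0.0119 to 0.12), Mrpl23 in 8 (0.0214 to 0.159) and Mrps34 in 6 (0.0261 to 0.153), with Mrps9 and Mrps34 losing it without any of the 6 libraries and Mrpl23 without any but tRNA-Phe-1-1-/- replicate C. The direction was kept in every alternative run for these 7 genes.

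**Figure D3:**
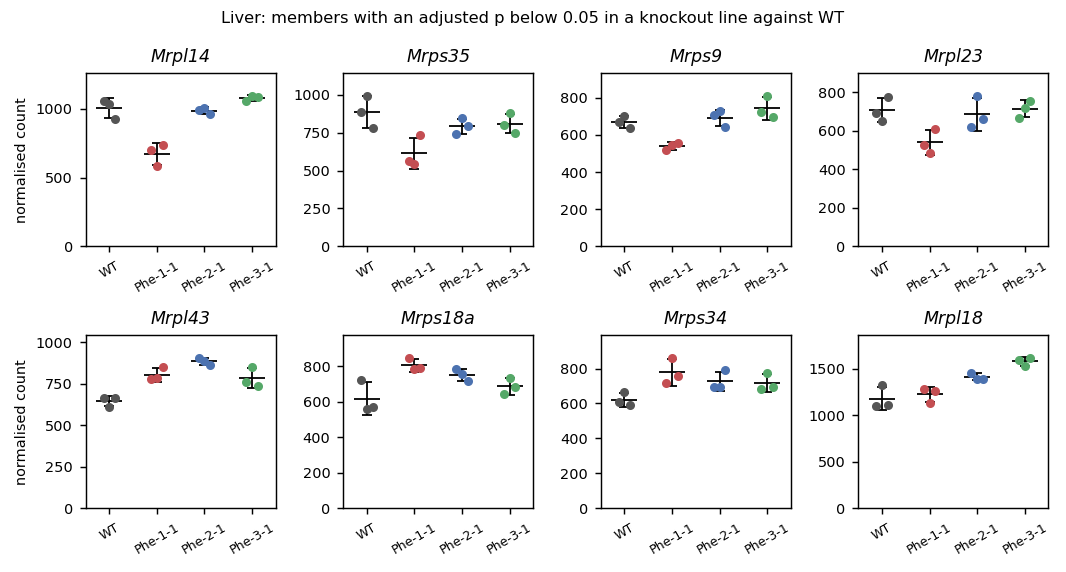
Normalised counts in the liver for the 8 members called in a knockout line against WT, by genotype, with each replicate as a point and the mean and SD of 3 replicates as bar and whiskers, all y axes starting at 0. Mrpl14, Mrps35, Mrps9 and Mrpl23 are lower in tRNA-Phe-1-1-/- (Mrpl14 at 583 to 740 against 924 to 1059 in WT), Mrpl43, Mrps18a and Mrps34 are higher, and Mrpl18 is highest in tRNA-Phe-3-1-/- (1527 to 1616).

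In tRNA-Phe-2-1-/- livers no member passed the test, but 68 of the 78 log2 fold changes (87.2%) were positive, beside 50.2% of all genes, with a median of 0.14 against 0.00 for all genes. The replicates did not overlap for 33 members, or 42.3%, beside 25.4% of all genes. Of these, 30 were higher than WT (38.5% of the members, beside 13.1% of all genes) and 3 were lower (beside 12.2%). The members' median stayed between 0.119 and 0.157 in all 17 alternatives, which include leaving out each library in turn. With limma, 0 members were called, beside 0.132% of all genes. At an unadjusted p under 0.05 there were 23 members, 20 of them higher, a count to which the 0.132% does not apply. EdgeR called 0 members, beside 0.126% of all genes, and DESeq2 called 2, beside 3.13%.

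The lowest p in tRNA-Phe-2-1-/- livers belonged to Mrpl43, with 907, 887 and 861 normalised counts beside 667, 611 and 664 in WT. No sample overlapped, and the log2 fold change was 0.45 ± 0.08 with an adjusted p of 0.0684, over alternatives from 2.76e-04 to 0.256. Mrpl35, a large subunit protein with a bacterial counterpart, had 864, 906 and 830 beside 618, 660 and 754 in WT. These samples did not overlap either, at 0.36 ± 0.09 and an adjusted p of 0.124, from 0.0156 to 0.327. These 2 genes were the ones called by DESeq2.

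In tRNA-Phe-3-1-/- livers 1 member rose and 0 fell, which was 1.28% of the members beside 0.883% of all genes (0.189% higher and 0.694% lower). Positive log2 fold changes were found for 60 of the 78 genes (76.9%, beside 51.3% of all genes), with a median of 0.10 against 0.01 for all genes and a range of 0.085 to 0.112 over 17 alternatives. Replicates did not overlap for 26 members, or 33.3%, beside 19.9% of all genes. Of these, 23 were higher (29.5%, beside 9.85%) and 3 lower (beside 10.1%).

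The call was Mrpl18, a central protuberance protein whose bacterial counterpart binds the ribosomal 5S RNA. It had normalised counts of 1102, 1318 and 1113 in WT and of 1591, 1527 and 1616 in tRNA-Phe-3-1-/- livers. The groups did not overlap, at a log2 fold change of 0.43 ± 0.09 and an adjusted p of 0.0474. In tRNA-Phe-2-1-/- it had 1454, 1389 and 1389, all above WT as well (0.26 ± 0.09, adjusted p = 0.211), and in tRNA-Phe-1-1-/- it had 1281, 1127 and 1258, which overlapped WT (0.06 ± 0.09, adjusted p = 0.709). The call in tRNA-Phe-3-1-/- was kept in 5 of 17 alternatives (adjusted p 0.00129 to 0.175) and was lost when any of the 3 WT or 3 tRNA-Phe-3-1-/- libraries was left out, giving a count of 0 each time. Calls over all genes, 140 in the main fit, ran from 2 to 212 in the runs without a library.

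The 3 members with all tRNA-Phe-3-1-/- livers below WT, none of which passed, were genes of the small subunit and are named after their values were seen. Mrps2, whose protein has a bacterial counterpart, had 955, 965 and 918 normalised counts in WT and 731, 765 and 747 in tRNA-Phe-3-1-/-, at -0.34 ± 0.07 and an adjusted p of 0.0506. Mrps27, without a bacterial counterpart, had 853, 777 and 946 in WT and 578, 552 and 673 in tRNA-Phe-3-1-/-, at -0.51 ± 0.11 and an adjusted p of 0.0557. Mrps6 had 207, 195 and 193 in WT and 150, 147 and 129 in tRNA-Phe-3-1-/-, at -0.48 ± 0.13 and an adjusted p of 0.103. In each of these 3 genes the knockout samples lay below every WT sample. The tRNA-Phe-2-1-/- livers also lay below every WT liver, at 806 to 830 for Mrps2, 687 to 766 for Mrps27 and 139 to 170 for Mrps6. For Mrps6 the tRNA-Phe-1-1-/- livers did as well (163 to 182). The lower values were therefore not particular to tRNA-Phe-3-1-/-. EdgeR called 1 member in this comparison, which was lower, beside 0.883% of all genes. DESeq2 called 4, with 1 higher and 3 lower, beside 4.77% of all genes. Under quantile normalisation the calls were 0 higher and 2 lower, beside 0.933% of all genes, so the direction of the calls depended on the method.

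Members also differed between the lines in the liver. When tRNA-Phe-1-1-/- livers were set against tRNA-Phe-2-1-/- livers, 10 members were called, all lower in tRNA-Phe-1-1-/-, which was 12.8% of the members beside 15.9% of all genes (7.37% higher and 8.53% lower). Mrpl14 differed by -0.56 ± 0.10 (adjusted p = 0.00349) and Mrps9 by -0.36 ± 0.09 (adjusted p = 0.0213), with 517, 547 and 556 normalised counts of Mrps9 in tRNA-Phe-1-1-/- and 708, 727 and 643 in tRNA-Phe-2-1-/-. The count of 10 was 4, 2 and 14 without tRNA-Phe-1-1-/- replicates A, B and C, and 3, 1 and 3 without tRNA-Phe-2-1-/- replicates A, B and C. Calls over all genes, 2521 in the main fit, were 1549, 1708 and 2572, and 1745, 1150 and 1466 in the same runs. Mrpl14 kept its call in 17 of 17 alternatives and Mrps9 in 14 of 17, the latter losing it without tRNA-Phe-1-1-/- replicate A or tRNA-Phe-2-1-/- replicate A or B.

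When tRNA-Phe-1-1-/- livers were set against tRNA-Phe-3-1-/- livers, 14 members were called, 4 higher and 10 lower in tRNA-Phe-1-1-/-, or 17.9% of the members beside 16.1% of all genes (7.45% higher and 8.63% lower). Mrpl14 was lower by a log2 difference of -0.69 ± 0.10 (adjusted p = 0.00107) and Mrps9, with 722, 811 and 695 in tRNA-Phe-3-1-/-, by -0.46 ± 0.09 (adjusted p = 0.00692). The 4 higher genes, named after their values were seen, were Mrpl34 (0.41 ± 0.10), Mrpl38 (0.24 ± 0.07), Mrps2 (0.28 ± 0.07) and Mrps27 (0.40 ± 0.11). Leaving out tRNA-Phe-1-1-/- replicates A, B and C gave 8, 10 and 13 calls, and leaving out tRNA-Phe-3-1-/- replicates A, B and C gave 7, 9 and 6. Calls over all genes, 2550 in the main fit, were 1512, 1907 and 2474, and 2060, 2149 and 1711 in the same runs. Mrpl14 kept its call in 17 of 17 alternatives and Mrps9 in 16. Both comparisons share the tRNA-Phe-1-1-/- samples. When tRNA-Phe-2-1-/- livers were set against tRNA-Phe-3-1-/- livers, 0 members were called (2 at an unadjusted p under 0.05), beside 0% of all genes, edgeR and DESeq2 also called 0 (beside 0% and 0.183%), and the median difference was 0.03.

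The plot of the 21 members called in any liver comparison sets the 3 lines side by side. By log2 fold change, Mrpl43, Mrps18a and Mrps34 lay above WT in all 3 lines, Mrps35 lay below WT in all 3, and Mrpl14 and Mrps9 lay below WT in tRNA-Phe-1-1-/- and within 0.15 of WT in the other lines. None of these genes was called against WT outside tRNA-Phe-1-1-/-, and samples of Mrps18a and Mrps35 overlapped WT in both other lines. The lines share the WT samples, so their values against WT are not independent.

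**Figure D4:**
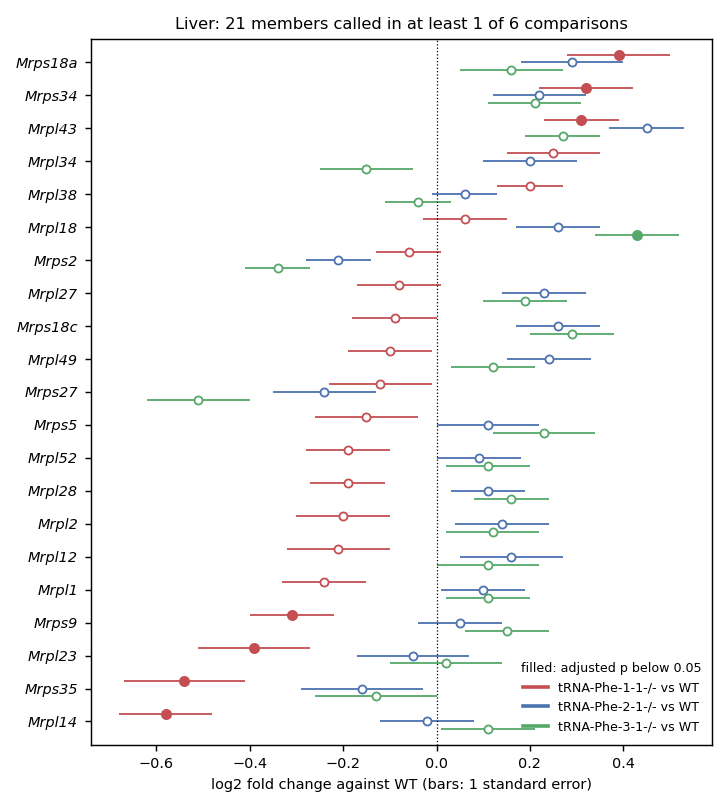
Log2 fold change against WT in the liver (x axis) for the 21 members called in at least 1 of 6 comparisons (y axis, ordered by the value in tRNA-Phe-1-1-/-), for tRNA-Phe-1-1-/- (red), tRNA-Phe-2-1-/- (blue) and tRNA-Phe-3-1-/- (green), with bars of 1 standard error and filled points for an adjusted p below 0.05. Mrpl14 lies at -0.58 in tRNA-Phe-1-1-/-, -0.02 in tRNA-Phe-2-1-/- and 0.11 in tRNA-Phe-3-1-/-, while Mrpl43 lies at 0.31, 0.45 and 0.27.

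Both subunits were counted apart. In tRNA-Phe-2-1-/- livers, 45 of the 51 large subunit genes were positive with a median log2 fold change of 0.13, as were 22 of the 26 small subunit genes with a median of 0.15. In tRNA-Phe-3-1-/- livers the counts were 39 of 51 (median 0.11) and 20 of 26 (median 0.07), and in tRNA-Phe-1-1-/- livers 26 of 51 (0.01) and 11 of 26 (-0.02). The ratio of the summed large to small subunit counts was 2.13 ± 0.0436 (SD, n = 3) in WT livers, 2.13 ± 0.0379 in tRNA-Phe-1-1-/-, 2.16 ± 0.0115 in tRNA-Phe-2-1-/- and 2.2 ± 0.0624 in tRNA-Phe-3-1-/-. It was 1.97 ± 0.0379 in WT brains and 1.92 to 1.95 in the knockout brains, and no test was run on these ratios. Genes with a bacterial counterpart and those without had, in tRNA-Phe-2-1-/- livers, medians of 0.16 and 0.11 in the large subunit and 0.17 and 0.08 in the small subunit.

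By structural region, the stalk genes (Mrpl1, Mrpl10, Mrpl11, Mrpl12, Mrpl53 and Mrpl54) had a median log2 fold change of -0.11 in tRNA-Phe-1-1-/- livers, 0.12 in tRNA-Phe-2-1-/-, where all 6 were positive, and 0.11 in tRNA-Phe-3-1-/-. The 8 central protuberance genes had medians of -0.03, 0.10 and 0.06, with 1 call, Mrpl18 in tRNA-Phe-3-1-/-. The 9 exit tunnel genes had medians of 0.06, 0.12 and -0.01, with 1 call, Mrpl23 in tRNA-Phe-1-1-/-. By limma, 0 stalk genes were called against WT in either tissue (3, 1 and 0 at an unadjusted p under 0.05 in the livers of the 3 lines and 0 in the brains), and calls by edgeR and DESeq2 were not counted by region. Of all genes, 17.3%, 0.132% and 0.883% were called in the livers and 1.05%, 0% and 0% in the brains. With 6 to 9 genes in a region, a count of 0 or 1 does not set it apart.

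**Figure D5:**
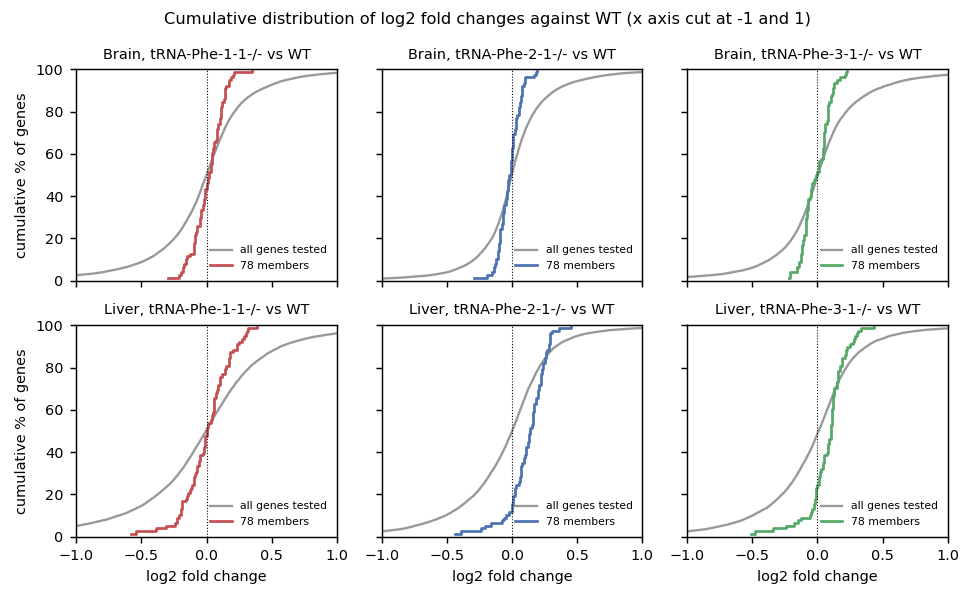
Cumulative percentage of genes (y axis) by log2 fold change against WT (x axis, cut at -1 and 1) for the 78 members (coloured steps) and all genes tested (grey line), by tissue and line. In every panel the middle of the members' curve is narrower than that of the grey curve (quartiles of -0.10 and 0.10 against -0.28 and 0.26 in tRNA-Phe-1-1-/- livers), and in livers of the tRNA-Phe-2-1-/- line and the tRNA-Phe-3-1-/- line they are shifted to the right (medians 0.14 and 0.10 against 0.00 and 0.01).

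Genes that work with the mitoribosome were set beside the members. Of 5 mitoribosomal proteins with other names, Ptcd3, a small subunit protein, fell in tRNA-Phe-1-1-/- livers, beside 9.08% of all genes called lower. It had 1548 ± 74.8 beside 1882 ± 80.4 in WT (SD, n = 3), at a log2 fold change of -0.28 ± 0.07 and an adjusted p of 0.0198 (limma). Of 25 assembly factors, 2 rose there: Ddx28, a helicase of large subunit assembly (0.61 ± 0.11, adjusted p = 0.00452), and Mterf3 (0.44 ± 0.11, adjusted p = 0.0211), beside 8.27% of all genes called higher. Of 17 translation factors and related proteins, 2 fell there: Mtif2, the initiation factor (-0.37 ± 0.08, adjusted p = 0.00966), and Oxa1l, which inserts new proteins into the inner membrane (-0.39 ± 0.09, adjusted p = 0.0133), beside 9.08% of all genes called lower. Of 12 regulators of mitochondrial biogenesis, including Nrf1, Gabpa and Ppargc1a, 0 were called in any line or tissue by limma (2, 2 and 3 at an unadjusted p under 0.05 in the livers of the 3 lines and 3, 0 and 2 in the brains), and their median log2 fold change was 0.06 in tRNA-Phe-1-1-/- livers. No gene of these 4 lists was called in livers of tRNA-Phe-2-1-/- mice or tRNA-Phe-3-1-/- mice or in any brain comparison with WT by limma, which alone was counted for these lists.

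The nuclear genes of the respiratory chain were set beside the members in tRNA-Phe-1-1-/- livers. There, 68 of 73 respiratory chain genes had a negative log2 fold change and 10 fell (median -0.17), such as Atp5mc1, of the ATP synthase (-0.40 ± 0.07, adjusted p = 0.00403), and Uqcr11, of complex III (-0.34 ± 0.08, adjusted p = 0.0123), beside 9.08% of all genes called lower. The members' median was -0.00. In livers of tRNA-Phe-2-1-/- mice and tRNA-Phe-3-1-/- mice the respiratory chain medians were 0.09 and 0.09, with 61 of 73 genes positive in each, and the members' medians were 0.14 and 0.10. The 76 cytosolic ribosomal protein genes had medians of -0.06, 0.02 and 0.05 in the livers of the 3 lines, with 2 genes, Rpl3 (-0.28 ± 0.08) and Rpl11 (-0.19 ± 0.06), falling in tRNA-Phe-1-1-/-, beside 9.08% of all genes. Of 13 genes of general mitochondrial content, Cs (citrate synthase, -0.57 ± 0.13) and Vdac1 (a pore of the outer membrane, -0.36 ± 0.09) fell in tRNA-Phe-1-1-/- livers, beside the same 9.08%.

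Some sums of liver cell type markers lay apart from those of WT. The 8 hepatocyte markers summed to 2801031 to 3470468 normalised counts in WT, 2203694 to 2746226 in tRNA-Phe-1-1-/-, 2332176 to 2650129 in tRNA-Phe-2-1-/- and 2987973 to 3511715 in tRNA-Phe-3-1-/-, with 1 marker higher in tRNA-Phe-1-1-/-. Of 4 endothelial markers, 2 were called higher in tRNA-Phe-1-1-/- livers although their sum was 6193 to 7844 beside 7316 to 7866 in WT, and of 5 leukocyte markers above the filter 2 were higher and 2 lower there. These marker calls stand beside 8.27% of all genes called higher and 9.08% called lower in that line. The summed leukocyte markers were 695 to 981 in WT, 881 to 1561 in tRNA-Phe-1-1-/-, 615 to 632 in tRNA-Phe-2-1-/- and 823 to 1341 in tRNA-Phe-3-1-/-, with Ly6g under 10 in every group. Summed endothelial markers were 8009 to 9931 in tRNA-Phe-3-1-/- livers, all above WT, and summed Kupffer cell and macrophage markers were 7230 to 7675 in tRNA-Phe-2-1-/- livers beside 6666 to 7115 in WT, again all above. The hepatocyte sums of both tRNA-Phe-1-1-/- livers and tRNA-Phe-2-1-/- livers lay below every WT liver, as did the leukocyte sums of tRNA-Phe-2-1-/- livers. The part of these shifts in the members' values was not tested.

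The phenylalanine content of the members was compared with the fold changes, since the removed genes encode tRNAs that carry it. The coding sequences of the 78 genes had a median of 3.39% phenylalanine codons, beside 3.75% in 21396 protein-coding genes, and 46.4% of these codons were TTT, beside 45.3%. The members ran from 0.498% (Mrpl12) to 8.15% (Mrpl41). Of the 4 genes that fell in tRNA-Phe-1-1-/- livers, Mrpl23 had 5.48%, Mrps9 5.38%, Mrpl14 3.45% and Mrps35 1.56%, on both sides of the median. Across the 78 genes, the share of phenylalanine codons and the log2 fold change had Spearman rho values of 0.0581 for tRNA-Phe-1-1-/-, -0.063 for tRNA-Phe-2-1-/- and -0.055 for tRNA-Phe-3-1-/- in the liver and of -0.0575, 0.212 and -5.69e-04 in the brain. These are correlations across genes of the same libraries, given as a description.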

How the data were processed

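Total RNA from mouse brain and liver (24 samples) was sequenced by the authors. By their methods, the authors used Trim Galore for trimming and STAR for alignment to GRCm38.p6, quantified transcripts with Salmon with regard to strand and with sequence and GC bias correction, summarised genes with tximport and ran DESeq2 in each tissue. The deposited signal is a normalised count, an estimated read count divided by a size factor per sample, which assumes that most genes did not change. In each of the 24 columns 100% of values were within 0.01 of a whole multiple of the smallest value, so whole reads were recovered, which gave depth and served edgeR and DESeq2. EdgeR called 2703 liver genes for tRNA-Phe-1-1-/- versus WT, where limma called 2751. The deposited comparison tables hold the authors' mean signal, log2 fold change, its error and an s-value, and were not used.

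Symbols came from GENCODE vM39 by Ensembl identifier (93.2% of 55434 matched), which also gave canonical transcript lengths, coding sequences and exon overlaps. Gene coordinates and promoters came from RefSeq (GRCm38.p6). Each tissue was fitted with limma 3.58.1 in R 4.3.3 on log2(normalised count + 1) over its 12 samples, with a variance trend, for genes with a mean of at least 10 (19228 in the brain and 15856 in the liver), and calls had a Benjamini-Hochberg adjusted p below 0.05, two-sided. Fold changes on this scale understate changes of low genes. The F-test covered the 4 genotypes. Shares of all genes called are at the adjusted threshold, so they are no background for counts at an unadjusted p. With 3 samples against 3 an exact permutation test cannot go below 0.1. Alternatives were edgeR 4.0.16 and DESeq2 1.42.0 on recovered reads, pseudocounts of 0.1 and 5, a minimum mean of 0 or 50, quantile normalisation, TMM rescaling, no variance trend, a replicate block, a fit of only the 2 groups compared and leaving out each sample.

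Genes were named by rule: up to 5 members called higher and 5 lower per knockout against WT by adjusted p, or the 2 lowest p where none was called; up to 2 called per comparison of lines; the 3 lowest F-test p per tissue; the highest and lowest per kb; and up to 3 called genes of each other list. The members and lists were chosen with earlier results of these data known. The fits were tested on simulated data.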

Additional observations from a re-analysis of the deposited data

Results flagged for a closer look

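Mrps6, which encodes a small subunit protein of the mitoribosome, stood on opposite sides of WT in the 2 tissues of tRNA-Phe-1-1-/- mice. All 3 brain samples lay above every WT brain (log2 fold change 0.35 ± 0.13) and all 3 liver samples lay below every WT liver (165, 182 and 163 normalised counts beside 207, 195 and 193; log2 fold change -0.23 ± 0.13). Neither value passed the adjusted threshold (limma, 0.21 and 0.261), and the difference between the tissues was not tested. Livers of the other lines lay below every WT liver as well (139 to 170 in tRNA-Phe-2-1-/- and 129 to 150 in tRNA-Phe-3-1-/-). Exons of Slc5a3 overlap Mrps6 on the same strand, so its level is uncertain.

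Mrpl43, of the large subunit, stood on opposite sides of WT in the brain and liver of tRNA-Phe-2-1-/- mice. Its brain samples (729, 736 and 775 normalised counts) lay below every WT brain (787, 825 and 856; log2 fold change -0.14 ± 0.08), and its liver samples lay above every WT liver (log2 fold change 0.45 ± 0.08). Neither passed the adjusted threshold (limma, 0.914 and 0.0684), and the difference between the tissues was not tested.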

How the results depend on the processing

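The medians over the members kept their values to within the spread between samples in all 17 alternatives of each comparison with WT, and no called member changed sign, though the brain medians and the tRNA-Phe-1-1-/- liver median lay on both sides of 0. In the brain, every count stayed at 0 except with tRNA-Phe-1-1-/- set against tRNA-Phe-3-1-/-, where DESeq2 gave 1 and leaving out a library gave 0 to 1. In the liver, the count among the 4 genotypes (11) was 7 with no filter, 7 with no variance trend and 26 with DESeq2. The calls over all genes in these runs are not given here. For tRNA-Phe-1-1-/- against WT (7) the count of members was 4 with no filter and 1 with only the 2 groups compared, where fewer samples enter. The same runs called 2359 and 1808 of all genes, against 2751 in the main fit. For tRNA-Phe-2-1-/- against WT (0) the count of members was 2 with DESeq2, which called 497 of all genes against 21 in the main fit. For tRNA-Phe-3-1-/- against WT (1) the count of members was 0 with no filter, no variance trend or only the 2 groups compared, 3 at a mean of at least 50, 2 with quantile normalisation (both lower, where the main call was higher) and 4 with DESeq2. In that order, these runs called 101, 33, 8, 173, 148 and 757 of all genes, against 140 in the main fit. With tRNA-Phe-1-1-/- set against tRNA-Phe-2-1-/- (10) the count of members was 5 with no filter, 16 with quantile normalisation, 3 with only the 2 groups compared and 16 with DESeq2. Of all genes, 2025, 2503, 1959 and 3359 were called in these runs, against 2521 in the main fit. With tRNA-Phe-1-1-/- set against tRNA-Phe-3-1-/- (14) the count of members was 9 with no filter, 9 with no variance trend and 1 with only the 2 groups compared. There, 2050, 2062 and 931 of all genes were called, against 2550 in the main fit. Beyond the smaller fits the cause was not tested. The split of higher to lower calls in tRNA-Phe-1-1-/- livers was 3 to 4, and 2 to 5 under quantile normalisation. Leaving out a library gave 5 to 11 members among the 4 genotypes, 1 to 6 for tRNA-Phe-1-1-/- against WT, 0 to 0 for tRNA-Phe-2-1-/- against WT, 0 to 0 for tRNA-Phe-3-1-/- against WT, 1 to 14 with tRNA-Phe-1-1-/- set against tRNA-Phe-2-1-/- and 6 to 13 with tRNA-Phe-1-1-/- set against tRNA-Phe-3-1-/-; where this left 2 samples in a group, the spread was pooled over the groups. Same-letter deviations from group means correlated between -0.294 and 0.492. Every pair was over 0.1 only when tRNA-Phe-2-1-/- brains were matched with tRNA-Phe-3-1-/- brains (0.132 to 0.492), where the replicate block left the count at 0, so the letters were not used as pairs elsewhere. With the letter as a replicate block the liver counts were 6 among the 4 genotypes, 4, 0 and 0 against WT, 5 with tRNA-Phe-1-1-/- set against tRNA-Phe-2-1-/- and 10 with tRNA-Phe-1-1-/- set against tRNA-Phe-3-1-/-. Of all genes, the block left 2347, 1 and 9 called against WT, and 2128 and 2151 in those comparisons of lines. For single named members, 58 of 472 alternative values lost the call, 2 gained it with DESeq2 and 412 stayed on the same side. The 472 include all named brain results and Mrpl43 and Mrpl35 in tRNA-Phe-2-1-/- livers, which had no call to lose. The share lost among called results was therefore larger than 58 of 472. The lowest member mean was 165 normalised counts.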
